A study of Mus musculus with 50 samples.

Results

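A panel of 40 genes that act in the G2 phase and in mitosis was examined in 50 single mouse cells. The panel was fixed by gene name, and all 40 genes had a row among the 11879 rows of the expression table. The panel and all lists below were chosen with earlier results of these data known. A pair of readouts was taken from each cell. The first was the number of panel genes above TPM 1, TPM being a length-scaled share of a cell's transcripts. The second was the mean of log2(TPM + 1) over the 40 genes, called the member score below. Summed over the rows of the expression table, TPM ran from 942975 to 970894 per cell. The cells were of 1 kind, the iR-iHEC group: hemogenic endothelial cells induced in culture from C57BL/6 embryonic stem cells that carry a doxycycline-inducible Runx1 cassette in the Rosa26 locus. The study sorted them at day 11 of differentiation as CD31+CD41lowCD45-c-kit+CD201high cells, and each cell became 1 polyA RNA library. All cells came from the same engineered line, every cell went through the Runx1 induction, and the table held no uninduced or embryonic cells to set beside them. The 50 cells are therefore 1 sample with no replicate, so shares carry exact binomial intervals for counting error over cells only and no test of significance was made. Cells are named by the pair of numbers in their titles, which the labels leave unexplained. Only the endothelial side of the sorted identity was checked here, against endothelial genes, and the hemogenic side was not. A median of 37 of 42 endothelial genes was above TPM 1 in the cells with the highest member scores and of 38 in the others, and Pecam1, Cdh5 and Esam had the values given below.

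The panel covers the steps by which a cell with replicated DNA divides. Cyclin A2 and the B-type cyclins bind Cdk1 and drive entry into mitosis, the Aurora, Polo-like and Bub kinases organise the spindle and its attachment to kinetochores, and the spindle checkpoint holds back the anaphase-promoting complex until all chromosomes are attached. Transcripts of most of these genes are low in G0 and G1, begin to rise in S phase and reach their highest levels in G2 and M, under the MuvB complex with B-Myb and FoxM1. In blood formation, hemogenic endothelial cells leave the endothelium and give rise to cells that divide, and Runx1 is required for that step.

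The number of panel genes per cell was uneven. The lowest cell had 8 of the 40 genes above TPM 1, the median cell 14 and the highest 40. The member score ran from 1.17 over a median of 1.87 to 8.39. In the ordered scores the widest step was 2.1, from 2.51 in cell 2-6 to 4.65 in cell 1-3, and the next widest was 1.27. Cells were described on both sides of that step, which was chosen after the values were seen, as an upper range of 9 cells (18%, exact 95% interval 8.58% to 31.4%) and a lower range of 41 cells. The upper cells had between 31 and 40 panel genes and the lower cells between 8 and 23, with a median of 13. With limits on the number of genes that did not rest on the step, 10 cells (20%, 10.0% to 33.7%) had at least 20 of the 40 genes, 11 cells (22%, 11.5% to 36%) had 10 or fewer, and 29 lay between. A single cell lay within 2 genes of the limit of 20, whereas 20 cells lay within 2 genes of the limit of 10, so the lower limit cut through a continuous run of cells. The 1 cell with at least 20 genes below the step was cell 2-6, with 23.

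**Figure D1:**
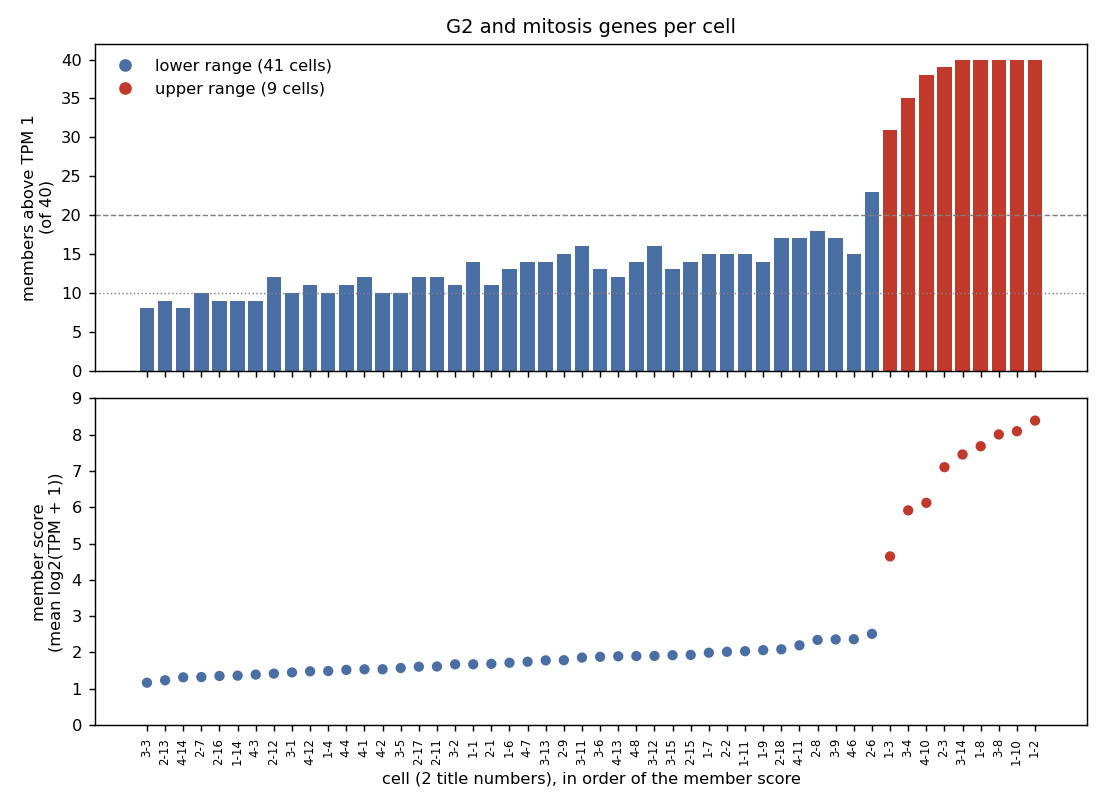
Number of panel genes above TPM 1 (top, of 40) and member score (bottom, mean log2(TPM + 1)) in each of the 50 cells, ordered by score. The 41 lower cells (blue) rose gradually from 1.17 to 2.51, and the 9 upper cells (red) ran from 4.65 to 8.39. The dashed line marks 20 genes and the dotted line 10.

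The upper cells differed in completeness. All 40 genes were above TPM 1 in 5 cells (10%, 3.33% to 21.8%): cells 3-14, 1-8, 3-8, 1-10 and 1-2, in order of rising score. In cell 2-3 the one gene not above TPM 1 was Bub1, listed at 0. In cell 4-10 they were Prc1, listed at 0, and Kif11, at TPM 0.87. Cell 3-4 had 35 genes, with Bub1b, Ttk, Nuf2, Kif23 and Ect2 listed at 0. Cell 1-3, the lowest of the 9, had 31 genes. In it Ccnb2, Plk1, Cenpf, Kif11, Hmmr, Kif20a, Kif23 and Prc1 were listed at 0 and Ckap2 was at TPM 0.28. These 9 genes of cell 1-3 comprise cyclin B2, the kinase Plk1, a kinetochore protein, the spindle motor Kif11, the microtubule-associated proteins Hmmr and Ckap2, and the Kif20a, Kif23 and Prc1 proteins of the central spindle. Of the TPM summed over the rows of the expression table, the panel carried between 0.464% and 2.45% in an upper cell. In a lower cell it carried between 0.0799% and 0.310%, so these shares did not overlap.

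**Figure D2:**
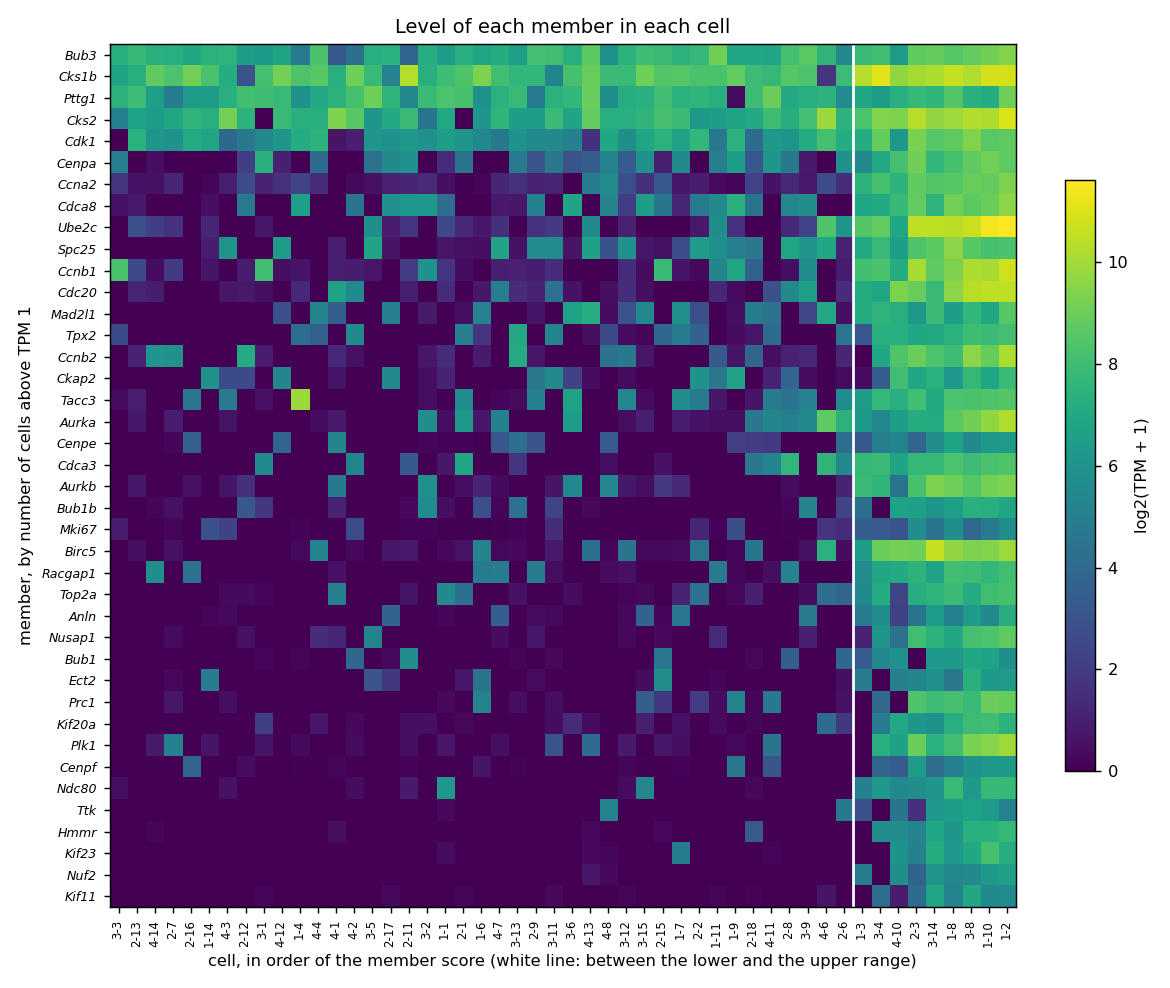
Level of each of the 40 panel genes (rows, ordered by number of cells above TPM 1) in each of the 50 cells (columns, ordered by member score), as log2(TPM + 1). The top 5 rows were bright in nearly every cell, the rest were mostly dark left of the white line, with scattered single values, and bright in the 9 cells to its right.

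The first title number took the values 1 to 4, and the upper cells were spread over all of them, with 4 of 11, 1 of 14, 3 of 13 and 1 of 12 cells. The number of all genes above TPM 1 lay between 6390 and 8615 in the upper cells (median 6786) and between 2400 and 8164 in the lower cells (median 6073), so the ranges overlapped. Depth is unknown from TPM, cells were not tested for doublets, and the part of either in the member score was not tested.

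The 5 broad members of the panel were above TPM 1 in over 90% of the cells. They were Bub3 and Cks1b (50 of 50 cells each), Pttg1 (49), Cks2 (48) and Cdk1 (47). The other 35 ranged from 35 cells for Cenpa (70%, 55.4% to 82.1%) to 7 cells for Kif11 (14%, 5.82% to 26.7%). The median share of cells over the panel was 37%, against 52% over all rows, and the median SD over cells of log2(TPM + 1) was 2.8 against 1.92. Over the 35 genes, 58.7% of the 1435 values in lower cells were listed at 0, 18.4% lay above 0 and up to TPM 1, 8.92% above 1 and up to 10, and 14.0% above 10. In the upper cells 91.1% of 315 values were above 10 and 61.3% were above 100, against 1.95% above 100 in the lower cells. A lower cell had between 3 and 18 of these 35 genes above TPM 1, with a median of 8.

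**Figure D3:**
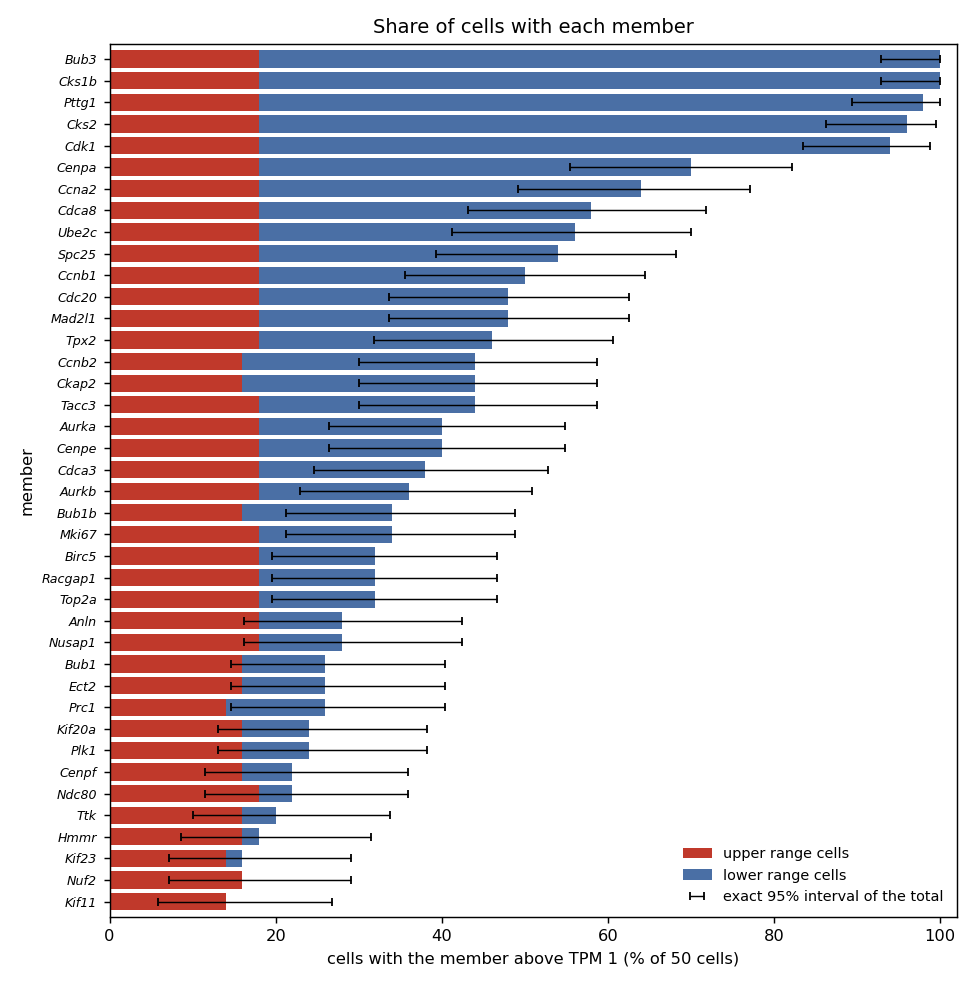
Share of the 50 cells with each panel gene above TPM 1, split into upper cells (red) and lower cells (blue), with the exact 95% interval of the total (line). The red part was nearly the same for all 40 genes, between 7 and 9 cells, and the blue part ran from 41 cells for Bub3 and Cks1b to 0 for Nuf2 and Kif11.

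Among the cyclins and the Cdk1 subunits, the split was clearest in Ccna2 (cyclin A2, chr3:36564865-36572150 of mm10). Its TPM was between 179 and 635 in the 9 upper cells, with a median of 386. In the 41 lower cells it ran from 0 over a median of 1.21 to 47.6, so no lower cell reached the lowest upper cell. Ccnb1 (cyclin B1) was between 147 and 1734 in the upper cells (median 630) and between 0 and 310 in the lower cells (median 0.83). The highest lower value of Ccnb1 was in cell 3-3, the cell with the lowest member score, where Cdk1, Cdc20, Mad2l1 and Ccnb2 were listed at 0. Ccnb2 (cyclin B2) was above TPM 1 in 8 upper and 14 lower cells, at up to 1177 and 141. Cdk1, the kinase these cyclins bind, was between 71.7 and 687 in the upper cells (median 420) and between 0 and 295 in the lower cells (median 64.2). Its partner proteins Cks1b and Cks2, small subunits of cyclin-dependent kinases, had upper medians of 1275 and 960 and lower medians of 300 and 154. For Cks1b a single lower cell, at 1293, exceeded the lowest upper cell at 817. These 3 genes were thus found in nearly all cells, at higher medians in the upper range.

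Of the genes around the anaphase-promoting complex, Cdc20, its mitotic activator (chr4:118432901-118437352), also had ranges that did not overlap. It was between 117 and 1444 in the upper cells (median 631) and between 0 and 104 in the lower cells (median 0.47). Ube2c, the complex's ubiquitin-conjugating enzyme, reached the highest level of the panel, with 123 to 3137 in the upper cells (median 1450) and 0 to 340 in the lower cells. Cdca3, an adaptor of the SCF ubiquitin ligase that acts on mitotic entry, was between 110 and 342 in the upper cells and above TPM 1 in 10 lower cells, at up to 197. Pttg1 (securin, which restrains separase until anaphase, chr11:43420250-43426251) stood apart from the rest. Its TPM was between 87.8 and 546 in the upper cells (median 164) and between 0.27 and 528 in the lower cells (median 175), and it was above TPM 10 in 40 of 41 lower cells. Its levels overlapped almost wholly between the ranges.

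The mitotic kinases were sparse in lower cells. Aurka was between 41.2 and 1187 in the upper cells (median 147) and above TPM 1 in 11 lower cells, at up to 423. Aurkb, the kinase of the chromosomal passenger complex, was between 22.1 and 654 in the upper cells and reached 56.2 in the lower cells. Plk1 was above TPM 1 in 8 upper cells, at up to 1000, and in 4 lower cells, at up to 33.6. Bub1 and Ttk, both kinases of the spindle checkpoint, were found in 8 upper cells each and in 5 and 2 lower cells. Of the other checkpoint genes, Mad2l1 was between 72.1 and 380 in the upper cells and above TPM 1 in 15 lower cells, and Bub1b was found in 8 upper and 9 lower cells. Bub3, which also binds kinetochores, was between 85.3 and 700 in the upper cells (median 433) and between 8.13 and 553 in the lower cells (median 161).

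The kinetochore and centromere genes were graded in their breadth. Cenpa, the histone variant of the centromere, was above TPM 1 in all 9 upper and 26 lower cells, with medians of 299 and 7.42. Cdca8 and Birc5 encode borealin and survivin of the chromosomal passenger complex. Cdca8 was found in 20 lower cells at up to 166, and Birc5 in 7 lower cells at up to 172, against upper medians of 413 and 647. Of the Ndc80 complex, which binds microtubules at the kinetochore, Spc25 was found in 18 lower cells, Ndc80 in 2 and Nuf2 in none, while the upper cells had 9, 9 and 8. Subunits of 1 complex therefore differed in how many lower cells had them. The kinetochore motor Cenpe and the large kinetochore protein Cenpf had upper medians of 46.8 and 31.1 and were found in 11 and 3 lower cells.

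Of the spindle proteins, Tpx2 (an activator of Aurora A) was above TPM 1 in 9 upper and 14 lower cells, Ckap2 in 8 and 14, Nusap1 in 9 and 5, Hmmr in 8 and 1, and the bipolar spindle motor Kif11 in 7 and 0. Tacc3, which stabilises kinetochore fibres, was between 81.3 and 358 in the upper cells (median 269). Its highest value, 929, was in lower cell 1-4, and no other panel gene had its highest value in a lower cell. Of the central spindle and cytokinesis genes, Racgap1 was found in 9 upper and 7 lower cells, Anln (anillin) in 9 and 5, Ect2 in 8 and 5, Prc1 in 7 and 6, Kif20a in 8 and 4, and Kif23 in 7 and 1. Their upper medians ran from 39 for Ect2 to 251 for Prc1.

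Mki67 and Top2a, commonly used to mark dividing cells, were both above TPM 1 in 9 of 9 upper cells and in 3 of 41 lower cells. Mki67 (a coat protein of mitotic chromosomes, chr7:135689784-135716361) was between 7.32 and 54.9 in the upper cells (median 21.2) and between 0 and 6.63 in the lower cells, without overlap. Top2a, which untangles DNA before it is separated, was between 4.28 and 298 in the upper cells (median 152) and reached 43.5 in the lower cells. Ccna2, Cdc20 and Mki67 were the 3 panel genes of 40 whose ranges did not overlap. The panel itself set the ranges, so these figures describe them and are no test. Mean log2(TPM + 1) was at least 1 higher in the upper range for 35 of the 36 panel genes that passed TPM 1 in 20% of cells or more, and at least 1 lower for 0, where the background over the 9068 rows outside the panel was 26.3% and 2.48%. The median difference was 5.56 over these panel genes and 0.46 over the rows outside, so levels outside the panel were also higher on balance in the upper cells. Of all 11839 rows outside the panel, 5 (0.0422%) did not overlap in the same way. They were Fam64a (60.5 to 736 in the upper cells, at most 44.7 in the lower), Kif4 (6.76 to 60.7, at most 3.09), Ckap2l (23.3 to 279, at most 0.83), Cep55 (6.15 to 149, at most 0.55) and Esco2 (2.26 to 89.6, listed at 0 in every lower cell), named after their values were seen. Kif4 and Ckap2l act on chromosomes and the spindle, Cep55 in the last step of cytokinesis, and Esco2 in the cohesion of sister chromatids.

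Promoter sequence of the panel was read from RefSeq (GRCm38.p6, 250 bases before to 50 after each start). Of the 40 genes 36 had an entry, and Aurkb, Ccna2, Kif20a and Tpx2 had none in that table. 2 kinds of short element known from G2 and M promoters were searched on both strands: the cell cycle genes homology region (CHR), as TTTGAA or TTTAAA, and the CCAAT box, as CCAAT. A gene was counted once, where any of its entries held the element. A CHR-type element was in 29 of the 36 genes (80.6%) and in 30.6% of all 27025 genes of the table. CCAAT was in 28 genes (77.8%), against 41.1% of all genes, and 20 genes (55.6%) had at least 2 copies in 1 entry, against 13.3%. Both kinds were in the same entry in 26 genes (72.2%), against 12.2%. Of the broad members, Bub3, Cks1b and Cdk1 had both kinds, Cks2 had CCAAT alone and Pttg1 had neither. The 150 bases before the start of the 6 genes found in the most cells among those with a CHR-type element are shown 5′ to 3′, with CHR-type elements and CCAAT boxes in capitals on whichever strand they were read.
Cks1b: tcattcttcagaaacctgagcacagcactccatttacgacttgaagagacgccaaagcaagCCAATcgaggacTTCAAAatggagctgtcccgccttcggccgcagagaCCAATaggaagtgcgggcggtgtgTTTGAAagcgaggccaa
Bub3: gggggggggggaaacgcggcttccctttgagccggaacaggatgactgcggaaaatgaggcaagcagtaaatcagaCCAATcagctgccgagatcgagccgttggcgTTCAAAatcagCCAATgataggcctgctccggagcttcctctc
Cdk1: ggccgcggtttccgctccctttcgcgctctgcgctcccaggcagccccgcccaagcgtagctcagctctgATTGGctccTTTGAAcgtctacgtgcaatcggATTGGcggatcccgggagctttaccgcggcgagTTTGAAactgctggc
Cenpa: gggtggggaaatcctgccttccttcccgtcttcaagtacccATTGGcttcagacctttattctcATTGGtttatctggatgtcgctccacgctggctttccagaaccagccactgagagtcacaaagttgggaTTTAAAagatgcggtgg
Cdca8: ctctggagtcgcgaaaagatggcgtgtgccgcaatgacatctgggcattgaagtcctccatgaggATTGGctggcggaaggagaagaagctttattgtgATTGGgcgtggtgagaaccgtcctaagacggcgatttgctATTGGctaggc
Ube2c: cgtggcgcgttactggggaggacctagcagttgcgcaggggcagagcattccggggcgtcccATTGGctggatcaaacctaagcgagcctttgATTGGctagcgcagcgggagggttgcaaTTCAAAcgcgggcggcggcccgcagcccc
They lie at chr3:89418292-89418441, minus strand, chr7:131560220-131560369, plus strand, chr10:69352913-69353062, minus strand, chr5:30666736-30666885, plus strand, chr4:124936918-124937067, minus strand, and chr2:164769779-164769928, plus strand, in the order printed. In Cdca8 the CHR-type element began at base 14 after the start and so is not in the stretch shown, which holds 3 CCAAT boxes in reverse orientation. The other 5 held both kinds of element in these 150 bases, Bub3 and Cks1b, found in all 50 cells, as well as Ube2c, found in 28. These letters are matches and were not tested as sites.

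Each row was then set against the member score over the 50 cells by Spearman's rho. A panel gene was set against the mean of the other 39. These values describe the 50 cells, which share amplification and table, and carry no test. A rho was given for 36 panel genes, those that passed TPM 1 in 20% of cells or more, and not for Nuf2, Hmmr, Kif11 and Kif23. The rho was 0.3 or more in 35 of the 36, with a median of 0.49, where the background was 8.18% of the 9068 rows outside the panel and their median rho was 0.07. The highest values were 0.67 for Aurka, 0.66 for Spc25 and 0.62 for Mad2l1. The exception was Pttg1, at -0.01. Over the 630 pairs of panel genes the median rho was 0.45. It was 0.60 among the upper cells alone and 0.04 among the lower cells alone. The ranges were cut on the mean of these same genes, so these figures are a description only.

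A list of 76 other G2 and mitosis genes, chosen like the panel with earlier results of these data known, followed the panel. Of 59 with a rho, 52 were at 0.3 or more and 0 at -0.3 or less, with a median of 0.48, where the background was 8.18% and 0.816%. With the number of genes above TPM 1 held constant, 36 were at 0.3 or more, against 2.57%. The upper cells had between 52 and 76 of these genes above TPM 1 and the lower cells between 12 and 34, without overlap. The score of the list had a rho of 0.72 with the member score over all cells, 0.49 in the lower and 0.93 in the upper range. The highest rho were those of the kinetochore gene Cenpq (0.67), Fam64a (0.66) and Dlgap5, a spindle protein (0.65), the last above TPM 1 in 9 upper and 1 lower cell. The lowest were those of the kinetochore genes Zwint (0.07) and Cenpt (0.17) and of the phosphatase Cdc25a (0.17). Zwint had medians of 96.1 in the upper and 114 in the lower cells.

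**Figure D4:**
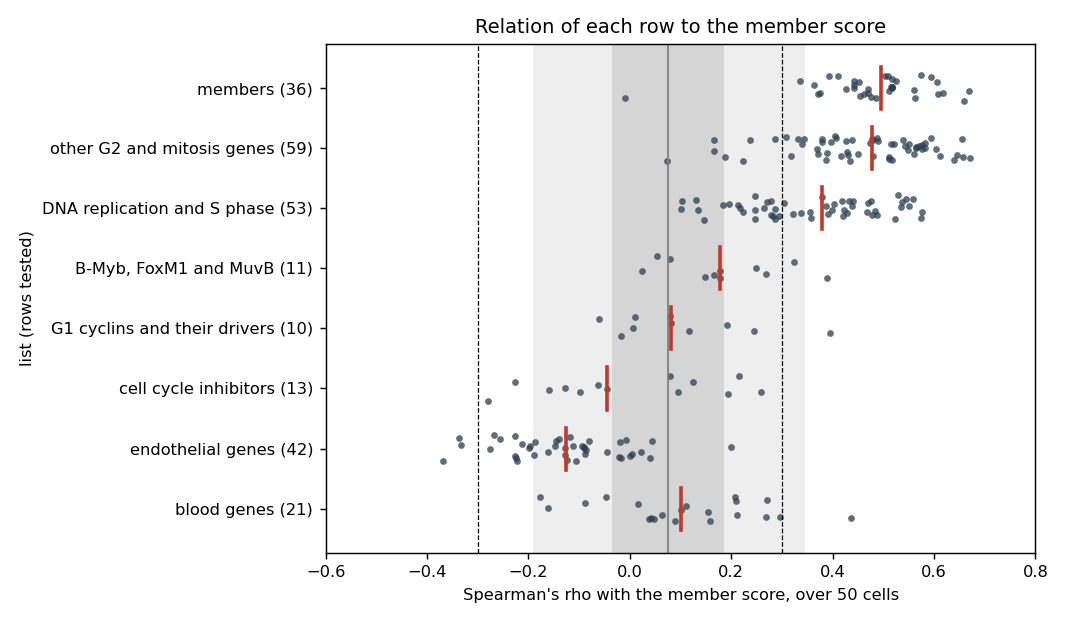
Spearman's rho with the member score over 50 cells for each tested row (points) of the panel and of 7 lists, with the list median (red bar). Light and dark bands hold the middle 90% and 50% of the 9068 rows outside the panel, the grey line is their median of 0.07, and dashed lines mark -0.3 and 0.3. The panel, the other G2 and mitosis genes and the S phase genes lay mostly right of 0.3 (medians 0.49, 0.48 and 0.38), and the endothelial genes lay around -0.13.

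The genes of DNA replication and S phase, a list also chosen with earlier results of these data known, were higher in the same cells. Of 53 with a rho, 32 were at 0.3 or more and 0 at -0.3 or less, with a median of 0.38, against the same background. That count was 22 when the number of genes was held constant. Mean log2(TPM + 1) was at least 1 higher in the upper range for 50 of the 53, where the background was 26.3%. The upper cells had 42 to 58 of the 60 genes above TPM 1 and the lower cells 14 to 42, and the S phase score lay between 3.85 and 6.60 against 1.22 and 3.62. The rho of both scores was 0.64 over all cells and 0.36 in the lower range, but -0.47 over the 9 upper cells. Within the 4 first title numbers it was 0.52, 0.66, 0.62 and 0.48. The number of genes above TPM 1 and the S phase score had a rho of 0.76, and with that number held constant the values within title numbers were -0.34, 0.27, 0.53 and 0.39, so the sign turned in number 1, and the value in the lower range was 0.16. Among the highest rho were those of the replication helicase factors Cdc45 (0.58) and Gins2 (0.56), and the lowest were those of Atad2 (0.10), Cdc7 (0.10) and Gins4 (0.13). Inside the upper range, cell 1-3, the cell with the lowest member score, had the highest S phase score, 6.60. Cyclin E2 (Ccne2), which acts at the start of S phase, was at TPM 501 in cell 1-3, 54.8 in cell 3-4 and 73.1 in cell 3-14, and was listed at 0 in the other 6. In order of rising member score, Cdc6, a factor that loads the replicative helicase, was at 174, 43.3, 0, 12.4, 5.84, 7.86, 3.78, 6.94 and 0. The sliding clamp Pcna was at 735, 1544, 678, 294, 645, 337, 284, 265 and 226 in the same order. Plk1 was at 0, 157, 100, 500, 168, 265, 621, 731 and 1000, and Aurka at 75.2, 41.2, 86.8, 147, 141, 396, 542, 818 and 1187. Each of these S phase genes, named after their values were seen, had its highest upper value in cell 1-3 or cell 3-4, and both kinases had theirs in cell 1-2. They do not stand for the whole list. Among the 9 upper cells alone, 20 of the 60 S phase genes were highest in cell 1-3 and 14 in cell 3-4, but 13 were highest in cell 3-14, 6 in cell 1-8, 4 in cell 1-2, and 1 each in cells 2-3, 3-8 and 1-10.

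The known regulators of the panel were mixed. Of 14 genes of the MuvB complex and its partners, 11 had a rho, 2 at 0.3 or more (Rbl1, 0.39, and Tfdp1, 0.32) and 0 at -0.3 or less, where the background was 8.18% and 0.816%. Of the 11, 0 stayed at 0.3 or more when the number of genes was held constant. Rbbp4 was at 0.27, and Nfyb (0.02), Lin52 (0.05) and E2f4 (0.08) were lowest. Foxm1 was above TPM 1 in 7 upper cells and in 0 lower cells, and Mybl2 (B-Myb) in 5 and 3, both too few for a rho. Of the G1 cyclins and their drivers, 1 of 10 was at 0.3 or more, E2f1 at 0.39, followed by E2f3 (0.24) and Cdk2 (0.19), with Ccnd1 (-0.06), Mycn (-0.02) and Cdk6 (0.01) lowest. That share was close to the background, and 0 of the 10 were at 0.3 or more with the number of genes held constant. Of 13 cell cycle inhibitors and antiproliferative genes, 0 were at 0.3 or more and 0 at -0.3 or less. Btg2 (-0.28), Cdkn1b (p27, -0.23) and Plk2 (-0.16) were lowest and Cdkn2d (p19, 0.26), Gadd45g (0.22) and Trp53 (0.19) highest. Btg2 had a median of 52.4 in the upper and 99.0 in the lower cells, with overlap. Cdkn1b was above TPM 1 in 7 upper and 36 lower cells, with medians of 10.7 and 10.3.

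Runx1, the induced factor, was found on both sides of the step. Its TPM was between 0.30 and 913 in the upper cells (median 294, above TPM 1 in 8 of 9) and between 0.16 and 677 in the lower cells (median 94.0, above TPM 1 in 35 of 41). In order of rising member score the upper cells had 229, 130, 294, 339, 6.64, 0.30, 454, 742 and 913. The highest and the lowest of these belonged to cells with all 40 panel genes. The table has 1 Runx1 row, in which transcripts of the cassette and of the endogenous gene cannot be told apart. Its rho with the member score was 0.21 over all cells, 0.11 in the lower range, 0.57 over the 9 upper cells and 0.0719 when the number of genes above TPM 1 was held constant. Within the 4 first title numbers it was 0.55, 0.25, -0.15 and 0.04, and without the 2 cells farthest from the median score it was 0.11. The pooled value thus rested partly on the 2 farthest cells and had no single sign within title numbers. With the number of genes above TPM 1 held constant, the values within title numbers were 0.63, 0.51, -0.35 and -0.21. Pearson's r was 0.16 over all cells and -0.0234 over the 9 upper cells, so the 0.57 there depended on the measure used.

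Endothelial genes were present in the upper cells, and part of them were at lower levels there. The score of 42 endothelial genes lay between 4.77 and 6.43 in the upper cells (median 5.98) and between 3.3 and 7.37 in the lower cells (median 6.33), and 39 of 41 lower cells were at or above the lowest upper cell. Its rho with the member score was -0.23 over all cells, -0.11 in the lower and 0.33 in the upper range. Within the 4 first title numbers it was 0.18, -0.31, -0.49 and -0.21. Number 1, which held 4 of the 9 upper cells, thus had the other sign. With the number of genes above TPM 1 held constant, the values were -0.0524, -0.54, -0.40 and -0.35, all negative. Mean log2(TPM + 1) was at least 1 lower in the upper range for 8 of the 42 genes (Cdh5, Flt1, Cldn5, Sox7, Sox18, Efnb2, Cav1 and Robo4), where the background over the rows outside the panel was 2.48%, and at least 1 higher for Lyve1 alone, where it was 26.3%. The median difference over the list was -0.34, against 0.46 over the rows outside the panel. By rho, of the 42 genes 0 were at 0.3 or more and 3 at -0.3 or less, where 0.816% of the rows outside the panel were at -0.3 or less. The 3 were junction genes: the adhesion molecule Esam (-0.37), VE-cadherin Cdh5 (-0.34) and claudin 5, Cldn5 (-0.33). Cdh5 was between 19.8 and 120 in the upper cells (median 62.6) and between 27.3 and 1168 in the lower cells (median 161), Esam had medians of 386 and 563, and both were above TPM 1 in 50 of 50 cells. The levels of Cdh5 overlapped, although its highest upper value was under its lower median. Lyve1 (0.20), Nr2f2 (0.04) and Stab1 (0.04) were highest. Pecam1 (CD31), a marker of the sort, was between 139 and 570 in the upper cells. In the lower cells it ran from 50.9 in cell 4-6 to 1319 in cell 2-2.

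**Figure D5:**
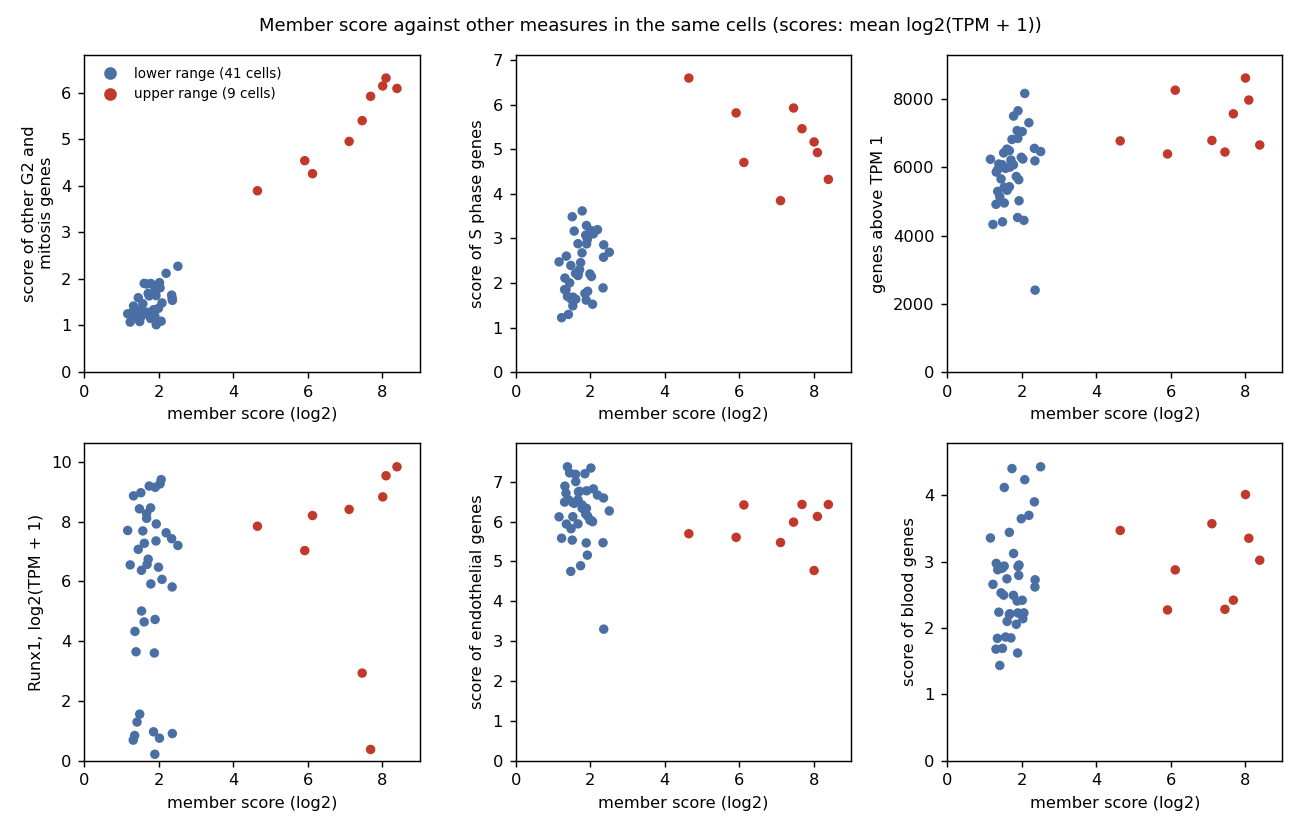
Member score (x axis, mean log2(TPM + 1) over 40 genes) of each of the 50 cells against 6 other measures of the same cell, with lower cells in blue and upper cells in red. The other G2 and mitosis genes and the S phase genes separated the ranges without overlap, whereas the number of genes, Runx1, the endothelial score and the blood score overlapped.

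Blood genes overlapped as well. The score of 26 blood genes lay between 2.27 and 4.01 in the upper cells and between 1.44 and 4.43 in the lower cells, with a rho of 0.33 over all cells, 0.27 in the lower and 0.20 in the upper range, and 0.48, 0.67, 0.0385 and 0.19 within the 4 first title numbers. With the number of genes held constant it was 0.0789 over all cells. Within the title numbers it was then -0.0326, 0.50, -0.16 and 0.11, so the sign turned in numbers 1 and 3. Of 21 blood genes with a rho, 1 was at 0.3 or more, Gata2 at 0.44, where the background was 8.18%, and 0 were at 0.3 or more with the number of genes held constant. Gata2, a factor of blood stem cells, had medians of 53.5 in the upper and 12.7 in the lower cells. Lmo2 was just under that limit, Laptm5 was at 0.27, and Coro1a (-0.18), Kit (-0.16) and Gfi1 (-0.09) were lowest. The number of genes above TPM 1 had itself a rho of 0.56 with the member score, 0.36 in the lower and 0.28 in the upper range. With it held constant, 27 of 36 panel genes were still at 0.3 or more, where the background was 2.57%, and the rho with the other G2 and mitosis score was 0.54, with the S phase score 0.39 and with the endothelial score -0.32.

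Markers of other cell types were low or absent in most upper cells for the erythroid and mesenchymal lists, and more variable for the others. Of 7 erythroid marker genes at most 1 was above TPM 1 in any upper cell, with summed levels of 0 to 17.2 TPM, against 0 to 1714 in lower cells. Mesenchymal markers summed to at most 17.7 TPM in upper and 84.2 in lower cells, with 4 of 8 genes above TPM 1 in no cell. Between 1 and 5 of 6 megakaryocyte markers were above TPM 1 in an upper cell and between 0 and 4 in a lower cell. They summed to 4.93 to 554 TPM in upper and 0 to 355 in lower cells, and 0 of 3 with a rho were at 0.3 or more. Myeloid markers summed to 0 to 710 and 0 to 1558 TPM, with a rho of 0.24 for Lyz2 and of -0.05 for Prtn3.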

How the data were processed

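Single iRunx1-iHECs were sequenced with polyA-based whole-transcriptome amplification (Discover-sc WTA Kit V2), with no molecular identifiers named. The deposited values are TPM per gene and cell, which the authors estimated. Per the submitters' processing notes the tools were bcl2fastq, HISAT2 2.1.0, SAMtools 0.1.19 and StringTie 1.3.4 on the build mm10. How the 11879 rows were selected is not given in the sources used here, TPM keeps no depth, and a value of 0 is described as listed at 0. Coordinates came from GENCODE release M21 on GRCm38, the assembly mm10 names.

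The 40 panel genes and all lists were chosen with earlier results of these data known. A gene counted as expressed above TPM 1, and log2 values used a pseudocount of 1. Spearman's rho with the member score, in Python 3.11.15 with SciPy 1.17.1, was computed for rows above TPM 1 in at least 20% of cells, with 0.3 and -0.3 as descriptive limits, and partial values held the number of genes above TPM 1 constant. The calculation was tested on simulated data. Intervals for shares were exact (Clopper-Pearson, 95%). No cell was left out, cells were not clustered and no doublet caller was run. Text outside the panel names Runx1, the 3 rows with the highest and the 3 with the lowest rho of each list, the 10 highest and 10 lowest unlisted rows, and promoters of up to 6 panel genes with a CHR-type element found in the most cells. Other names were chosen after their values were seen. A few genes that this rule names are not reported here by name but are kept in the counts and medians. Results were recomputed at levels of TPM 0, 5 and 10, with a pseudocount of 0.1, Pearson's r, partial rho, the number of genes as the score, TPM rescaled without 84 ribosomal protein rows, all rows above TPM 1 in at least 1 cell, each first title number left out and cell 4-6, with the fewest genes, left out. A share of cells was taken as kept within its exact interval, a rho within 0.1 and a count within 1.5 times. The median number of panel genes was taken as kept within an exact interval over the 40 genes. That interval treats the genes as independent and does not measure spread over cells.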

Additional observations from a re-analysis of the deposited data

How the results depend on the processing

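Main values kept within their limits under most settings, with 98 of 128 recomputed values kept. Of the other 30, 2 had the opposite sign. The level moved the counts of cells most. At TPM above 0 the median cell had 21 panel genes, 60% of cells had at least 20 and 2% had 10 or fewer. Raising the level to 5 or 10 put 42% or 58% of cells at 10 genes or fewer, and the share with at least 20 stayed within its interval at both. A share of cells moved out of its interval for 18 of 40 panel genes at TPM above 0, for 3 at 5 and for 7 at 10. With Pearson's r in place of rho, the median over panel pairs was 0.60, the S phase relation 0.81 and the blood relation 0.21, and 1 endothelial gene was at -0.3 or less. With the number of genes held constant, the S phase relation was 0.39, Runx1 0.0719 and the blood score 0.0789, and 5 endothelial genes were at -0.3 or less, where 4.28% of the rows outside the panel were. A pseudocount of 0.1 gave -0.12 for the endothelial score. Leaving out each first title number in turn gave 0.34 to 0.52 for panel pairs, 0.0662 to 0.324 for Runx1, 0.19 to 0.44 for the blood score, 31 to 57 other G2 and mitosis genes at 0.3 or more, and 3 to 5 endothelial genes at -0.3 or less. The count of 31 and the values of 0.34 and 0.0662 were those without number 1, which held 4 of the 9 upper cells. Within the ranges, chosen after the data were seen, the lower and upper values were 0.36 and -0.47 for the S phase score, 0.11 and 0.57 for Runx1, -0.11 and 0.33 for the endothelial score, the S phase and endothelial values of the upper range being those of opposite sign, and 0.36 and 0.28 for genes per cell, and the blood score was 0.20 in the upper range. The cause of these shifts was not tested. Leaving out cell 4-6 or rescaling TPM without ribosomal protein rows moved none of the main values. No paired analysis was possible because the series has 1 group. TPM keeps no depth, so missing transcripts of low genes and their absence cannot be told apart.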

Other observations

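Outside all lists, the 10 rows with the highest rho with the member score were Pmf1 (0.63), Poc1a (0.60), Chek1 (0.60), Hist1h2ab (0.58), Stil (0.58), Lsm4, Nde1, Chek2, Ccdc77 and Dek, the last 5 at 0.56 each. With the number of genes above TPM 1 held constant, all 10 were between 0.34 and 0.58. Several have known roles in division: Pmf1 is a subunit of the Mis12 kinetochore complex, Poc1a and Stil act in centriole assembly, Nde1 acts with dynein at the spindle, and Chek1 and Chek2 are kinases of the DNA damage checkpoint. Pmf1 was between TPM 165 and 360 in the upper cells and at a median of 41.7 in the lower cells, and Lsm4 had medians of 389 and 137. Hist1h2ab belongs to a family of near-identical histone genes, and its row may share reads with the other copies.

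The 10 rows with the lowest rho were Rps6 (-0.50), Gm9846, Rps27, Rsu1 and Nova2 (-0.47 each), 2410006H16Rik (-0.46), 1500012F01Rik and Rps16 (-0.44 each), Rpl27a (-0.41) and Rpl3 (-0.40). With the number of genes above TPM 1 held constant, 5 of the 10 were no longer at -0.3 or less: Rps6 (-0.26), Gm9846 (-0.11), Rps27 (-0.27), Rps16 (-0.17) and Rpl27a (-0.19). Of the 10 rows, 5 were ribosomal protein genes, which have many processed copies in the genome, so their levels are uncertain. Rps6 had medians of 1918 in the upper and 2999 in the lower cells. Nova2 was above TPM 1 in 0 upper and 10 lower cells, at up to TPM 9.27, so it passed the limit of 20% of cells only through lower cells. TPM is a share of each cell's total, so a lower TPM of these rows cannot be told apart from a higher total of other transcripts.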
